A study of Populus tremula x Populus alba with 6 samples.

Results

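DNA-3 elements are DNA transposons of poplar. In the deposited lists of mobilome-seq loci they appear under the family names DNA-3-1_PTr, DNA-3-2_PTr, DNA-3-2B_PTr and DNA-3-3_PTr. Mobilome-seq amplifies extrachromosomal circular DNA before sequencing, and each list holds the transposable element loci that carried signal in 1 library. The loci described here were selected by the first family name given to a locus, and the families were chosen from their depth and split-read values in these libraries, so those values are given as a description. They make up 22 of the 436 listed loci, and 38 of the 665 entries when a locus is counted in every library that lists it.

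The material was shoot apical meristem of 717-1B4, a clone of the hybrid Populus tremula x Populus alba. Wild type (WT) and 2 RNAi lines against ddm1, line 15 and line 23, were each sampled under control watering and after a drought that was followed by rewatering (called drought below), with 1 library for each of these 6 groups. All groups share the clone and the tissue. The sources used here do not give plant age, the number of plants per library or the construct behind the RNAi. With 1 library per group no value has a replicate, and a difference between libraries cannot be told apart from a difference between conditions.

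DNA transposons move as DNA, in many families by excision of the element from the chromosome and insertion elsewhere, and the excised copy can be joined into a circle. DDM1 is a chromatin remodeller that in Arabidopsis is needed for DNA methylation and silencing of many transposable elements. Short DNA transposon copies often lack a transposase of their own and depend on that of a related element. The label DNA-3 itself gives no superfamily.

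Each locus has 2 signals per the file headers. The first, headed DOC, is called the depth value here and read as depth of coverage. The second, headed SR, is called the split-read value and read as reads split over a junction, for instance where a circle closes. Whether the depth value counts reads or gives a mean depth is not stated, and neither signal is scaled to library size. The summed depth value of a whole list ran from 22388 to 92011 and the summed split-read value from 2423 to 9214. In each list 1 locus outside DNA-3 held a large part of the summed depth value. In control it held 49200 of 92011 in WT, 51684 of 69585 in line 15 and 36388 of 44510 in line 23. After drought it held 22796 of 30529, 24823 of 50114 and 14317 of 22388, in the same order. A locus missing from a list is called unlisted, since the level needed for listing is not given.

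The 22 loci lay on 10 of the 19 chromosomes. They are called by the number of their chromosome, with a letter in order of position where a chromosome has several. DNA-3-3_PTr named 11 loci and 22 entries, DNA-3-1_PTr 6 loci and 7 entries, DNA-3-2B_PTr 3 loci and 7 entries, and DNA-3-2_PTr 2 loci and 2 entries. Every one of the 22 carried DNA-3 names alone. At 9 loci several names were given. DNA-3-3_PTr and DNA-3-2_PTr or DNA-3-2B_PTr stood together at 8 of these, whereas all 6 DNA-3-1_PTr loci carried that single name.

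The DNA-3-3_PTr loci that the results turn on were these, in coordinates of the deposited tables counted from 1. Locus 1b lay on chromosome 1 from 24681274 to 24681590 and was 317 bp long. Locus 1d lay on the same chromosome from 30005278 to 30005537 and was 260 bp long. Locus 3a lay on chromosome 3 from 12264531 to 12264753 (223 bp). Locus 6b lay on chromosome 6 from 9140343 to 9140489 (147 bp), and locus 6c followed on that chromosome from 10634066 to 10634172 (107 bp). Locus 16 lay on chromosome 16 from 4150312 to 4150641 (330 bp). These are short pieces, and no gene annotation was used, so their position relative to genes is not given.

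Of the other names, DNA-3-2B_PTr covered locus 4b on chromosome 4 from 3534056 to 3534164 (109 bp) and locus 6a on chromosome 6 from 4752654 to 4752834 (181 bp). DNA-3-2_PTr covered locus 3b on chromosome 3 from 12366569 to 12366821 (253 bp) and locus 3c from 16293701 to 16293938 (238 bp). Loci 3a and 3b were 101815 bp apart, the shortest gap between any 2 DNA-3 loci. DNA-3-1_PTr covered locus 14 on chromosome 14 from 14563883 to 14564058 (176 bp).

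**Figure D1:**
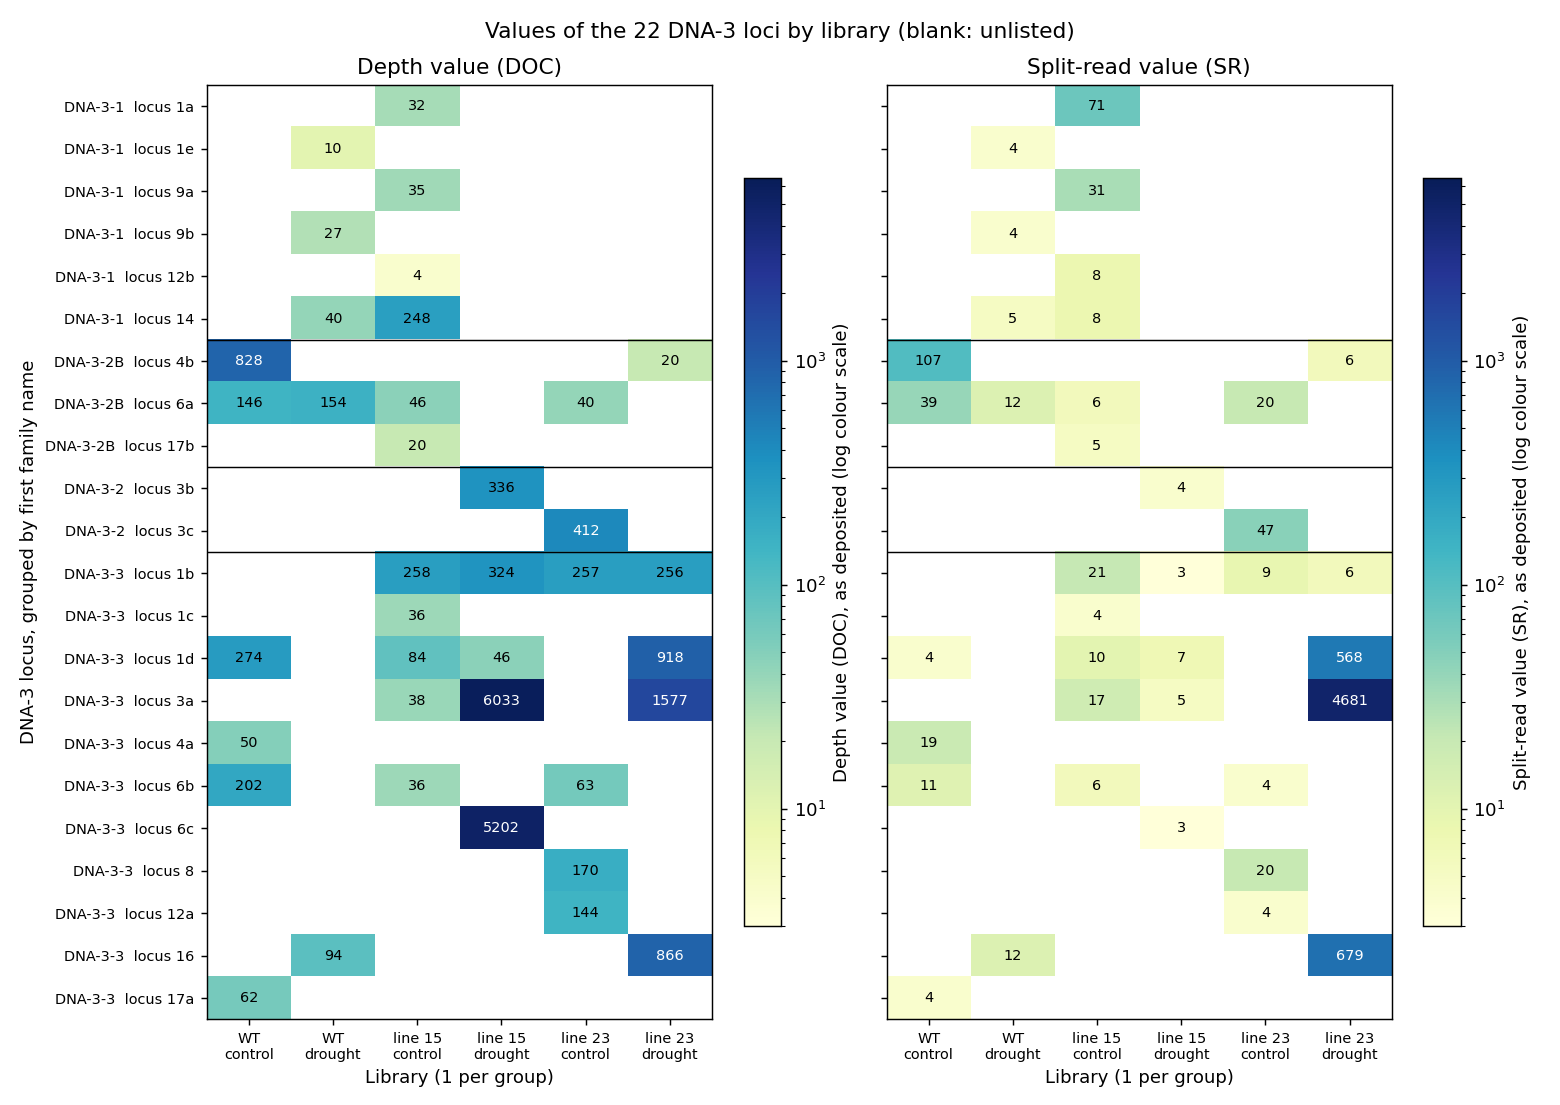
Depth value (left) and split-read value (right) of the 22 DNA-3 loci in the 6 libraries, as deposited, on a log colour scale; rows are loci grouped by first family name, columns are libraries, and blank cells are unlisted. The 2 highest depth values, 6033 and 5202, are both in line 15 drought, where the split-read values of the same loci are 5 and 3, and the highest split-read value, 4681, is in line 23 drought.

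Listing varied between libraries. Of the 22 DNA-3 loci, 8 were listed in more than 1 library (36.4%, against 26.6% of all 436 loci), and none was listed in more than 4 of the 6. The RNAi libraries alone listed 12 (54.5%, against 48.2% of all loci), the WT libraries alone listed 4 (18.2%, against 30.5%), and 6 were in both. The RNAi set spans 4 libraries and the WT set 2. The control libraries alone listed 11, the drought libraries alone 5, and 6 were found under both waterings. In each genotype the control list was the longer, with 149 against 115 loci in WT, 169 against 79 in line 15 and 109 against 44 in line 23. The same split over all 436 loci was not counted, so nothing is read from these numbers.

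The names were not spread alike over the libraries. DNA-3-1_PTr was listed only in line 15 control, at 4 loci, and in WT drought, at 3 loci, with locus 14 in both. Locus 14 had the depth values 40 in WT drought and 248 in line 15 control, with split-read values of 5 and 8. The other 5 DNA-3-1_PTr loci had depth values between 4 and 35. DNA-3-3_PTr was listed in all 6 libraries, at 1 locus in WT drought and at 4 or 5 in each of the others. DNA-3-2B_PTr was listed in every library except line 15 drought, and DNA-3-2_PTr only in line 15 drought and line 23 control, at different loci. None of these differences was tested.

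Locus 3a had the widest range of values of any DNA-3 locus. In line 15 its depth value was 38 in control and 6033 after drought, in line 23 it was 1577 after drought, and the locus was unlisted in both WT libraries and in line 23 control. In line 15 the depth value was thus 159 times higher after drought, a log2 ratio of 7.31. The split-read value went the other way in that line, from 17 to 5, and was 4681 in line 23 drought, 936.2 times that of line 15 drought. Depth covered 182 of 223 bp in line 15 drought, where the depth value was highest, and the whole locus in the other lists that held it. Split reads covered the whole locus in line 23 drought, and in line 15 they covered 145 bp in control and 117 bp after drought. The libraries of both RNAi lines after drought were therefore high in depth at this locus, and 1 of them was high in split reads.

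Locus 6c, a 107 bp DNA-3-3_PTr fragment, was listed in line 15 drought alone, with a depth value of 5202 and a split-read value of 3. Divided by length, its depth value was 48.6 per bp, above the 27.1 per bp of locus 3a in the same library, so the order of the pair turns with that scaling. Depth covered all of its 107 bp and split reads covered 27 bp. Together with locus 3a it held 94.1% of the DNA-3 depth of that list, and neither had many split reads. Across all libraries 12 entries had a depth value over 2000, and 9 of these, at 4 loci, had a split-read value of 13 or less. DNA-3 supplied 2 of the 9.

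Loci 1d and 16 were high in line 23 drought. Locus 1d had depth values of 274 in WT control, 84 and 46 in the control and drought libraries of line 15, and 918 in line 23 drought. In the same order it had split-read values of 4, 10, 7 and 568. Line 23 drought stood above the other 3 libraries in both signals, and the depth value there was 19.96 times that of line 15 drought. Locus 16 had a depth value of 94 in WT drought and 866 in line 23 drought, a ratio of 9.21, with split-read values of 12 and 679, a ratio of 56.6. Split reads covered 104 bp and 105 bp of this 330 bp locus in those libraries, and 94 bp to 159 bp of the 260 bp of locus 1d. The part of each locus that carried split reads was thus similar at locus 16 at very unequal signal.

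Line 23 drought differed from the other lists beyond DNA-3. Split-read values over 300 were found at 6 of its 44 loci, 3 of them DNA-3 loci, and at 1 or 2 loci in each of the other lists, none of them DNA-3. Among loci of other families, the summed split-read value was 0.175 of the summed depth value in line 23 drought and between 0.0491 and 0.0825 in the other libraries. The part of this library-wide difference in the DNA-3 values was not tested.

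Locus 1b had the narrowest range of depth among the loci listed in several libraries. In line 15 its depth value was 258 in control and 324 after drought, in line 23 these were 257 and 256, and both WT libraries left it unlisted. The highest of the 4 was 1.27 times the lowest. The split-read values of 21, 3, 9 and 6 spanned 7-fold. Depth covered 300 bp to 315 bp of its 317 bp. Depth as deposited was therefore nearly level over the RNAi libraries while the split-read value was not. Divided by the library's sum, depth was higher after drought in both lines (log2 ratios 0.80 in line 15 and 0.99 in line 23). The split-read values are small, with 3 the lowest listed in any library.

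The first comparison set drought against control within a genotype. A locus could be compared where both libraries of a genotype listed it, which held for 1 DNA-3 locus in WT, 3 in line 15 and 1 in line 23. In WT, locus 6a had a depth value of 146 in control and 154 after drought and split-read values of 39 and 12. In line 15, locus 1b had the depth values 258 and 324, locus 1d 84 and 46, and locus 3a 38 and 6033. Their split-read values went from 21 to 3, from 10 to 7 and from 17 to 5. In line 23, locus 1b had depth values of 257 and 256 and split-read values of 9 and 6.

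Depth was at least 2-fold higher after drought in 1 of these 5 pairs, at locus 3a, against 10.8% of the 83 pairs over all loci. It was at least 2-fold lower in 0 of 5, against 19.3%. Divided by the library's sum, locus 6a in WT was also at least 2-fold higher (log2 ratio 1.67). That ratio rests on the sums, 92011 in WT control and 30529 in WT drought, since the depth value itself went from 146 to 154. These depth values helped to choose the families, so nothing is read from the counts. The split-read value was lower after drought in 5 of 5 pairs, with a median log2 ratio of -1.70, where 65.1% of all 83 pairs were lower and the median was -0.42. It was at least 2-fold lower in 3 of 5, against 28.9%. Divided by the library's sum, 1 of the 5, locus 1d in line 15, turned to a higher split-read value (log2 ratio 0.43). The 5 pairs come from 4 loci, and most of their split-read values after drought were near the lowest listed value of 3.

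RNAi lines and WT were then compared under control watering, where both lines were set against the same WT control library. Locus 6a had a depth value of 146 in WT, against 46 in line 15 and 40 in line 23. Locus 6b had 202 in WT, against 36 in line 15 and 63 in line 23, and was unlisted in the 3 drought libraries. Locus 1d had 274 in WT and 84 in line 15, and was unlisted in line 23 control. WT was highest at each of the 3 loci.

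All 5 of these pairs were at least 2-fold lower in the RNAi line, with ratios of WT over RNAi from 3.17 to 5.61, against 24.1% of the 79 pairs over all loci. The median log2 ratio of depth, RNAi over WT, was -1.71 for the 5 and -0.22 for all 79. After division by the library's sum all 5 log2 ratios were below 0, from -2.09 to -0.63, but both line 23 pairs (-0.63 at locus 6b and -0.82 at locus 6a) were then less than 2-fold lower, which left 3 of 5. The split-read value was at least 2-fold lower in 2 of 5 pairs, against 29.1% of all 79. At locus 1d it was higher in line 15 (10 against 4). The depth values took part in choosing the families, and the counts were not tested.

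Between the RNAi lines under control watering, the depth values as deposited of the loci listed in both differed by at most 1.75 times. Locus 1b had 258 in line 15 and 257 in line 23, locus 6a had 46 and 40, and locus 6b had 36 and 63. Divided by the library's sum, line 23 was higher at all 3, with log2 ratios of 0.64, 0.44 and 1.45 in the same order. After drought the lines were further apart at loci 3a and 1d. Locus 3a had 6033 in line 15 and 1577 in line 23, locus 1d had 46 and 918, and locus 1b had 324 and 256. Line 15 was higher at loci 3a and 1b and line 23 at locus 1d, while line 23 had the higher split-read value at all 3. Divided by the library's sum, locus 1b turned in both signals, to a higher depth and a lower split-read value in line 23 (log2 ratios 0.82 and -0.93). After drought WT and line 15 shared no DNA-3 locus, and WT and line 23 shared locus 16 alone.

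The members listed in a single library numbered 14, with depth values from 4 to 5202 and a median of 43. Their split-read values ran from 3 to 71, with a median of 4.5. Line 23 control listed 3 of them, locus 3c with a depth value of 412 and a split-read value of 47, the chromosome 8 locus with 170 and 20, and locus 12a with 144 and 4. Locus 3b in line 15 drought had a depth value of 336 and a split-read value of 4. Locus 4b was listed in 2 libraries, with a depth value of 828 and a split-read value of 107 in WT control, and 20 and 6 in line 23 drought. Locus 4b was the leading DNA-3 locus of WT control and ranked 6 of 149 there by depth.

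**Figure D2:**
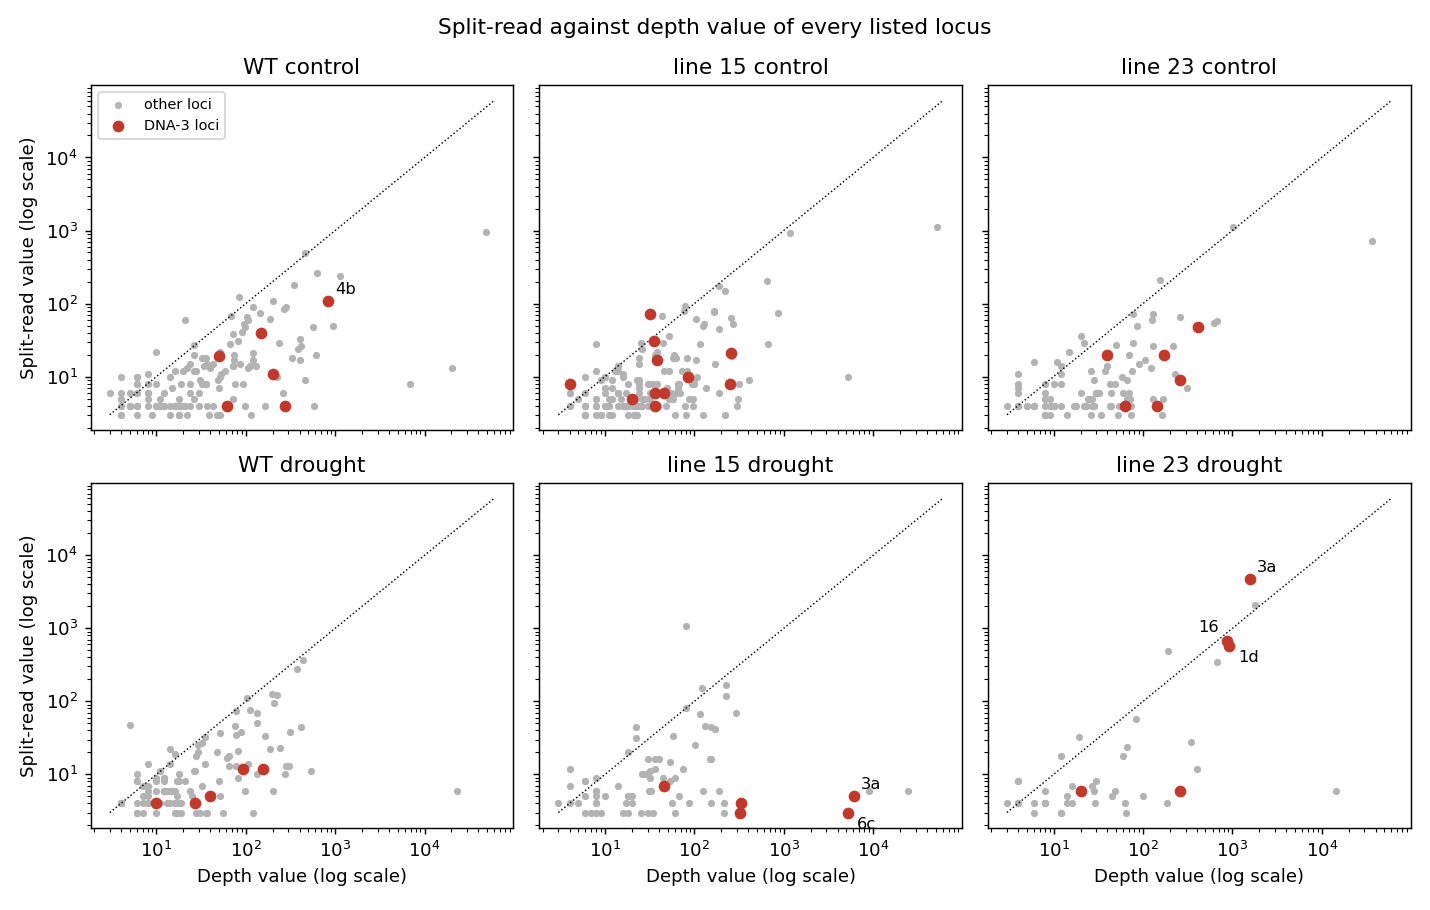
Split-read value against depth value of every listed locus in each library, on log axes; red points are DNA-3 loci, grey points other loci, and the dotted line marks equal values. In line 15 drought the DNA-3 loci 3a and 6c lie far right at split-read values of 5 and 3, while in line 23 drought loci 3a, 1d and 16 lie near or above the line.

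The relation of the signals differed between the leading DNA-3 loci of the drought libraries of the lines. The split-read value was 0.0829% of the depth value at locus 3a and 0.0577% at locus 6c in line 15 drought. In line 23 drought it was 297% at locus 3a, 61.9% at locus 1d and 78.4% at locus 16. Of the 38 DNA-3 entries, 3 had more split reads than depth (7.89%), against 9.92% of all 665 entries. The others of these 3 were loci 1a and 12b in line 15 control, with split-read values of 71 and 8 against depth values of 32 and 4.

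By number, WT control listed 6 DNA-3 loci among 149 (4.03%, exact 95% interval 1.49 to 8.56), and WT drought 5 among 115 (4.35%, 1.43 to 9.85). They were 11 of 169 in line 15 control (6.51%, 3.29 to 11.3) and 5 of 79 in line 15 drought (6.33%, 2.09 to 14.2). In line 23 they were 6 of 109 in control (5.50%, 2.05 to 11.6) and 5 of 44 after drought (11.4%, 3.79 to 24.6). These Clopper-Pearson intervals cover counting error only, and all 6 overlap.

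By signal, the shares were uneven. The DNA-3 part of the summed split-read value was 64.5% in line 23 drought (5940 of 9214). It was 3.98%, 4.003% and 3.11% in the control libraries of WT, line 15 and line 23, and after drought 1.46% in WT and 0.908% in line 15. Line 15 drought, the highest of the lists in its DNA-3 part of the summed depth value (11941 of 50114, 23.8%), was therefore the lowest in the split-read part. Locus 3a made up 78.8% of the DNA-3 split-read value of line 23 drought, and without it the DNA-3 part was 27.8%. The median depth value of the DNA-3 loci of a list was 174, 36 and 157 in the control libraries of WT, line 15 and line 23, and 40, 336 and 866 in their drought libraries. It was above the median of the other loci in each list, by 1.38 to 45.6 times.

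**Figure D3:**
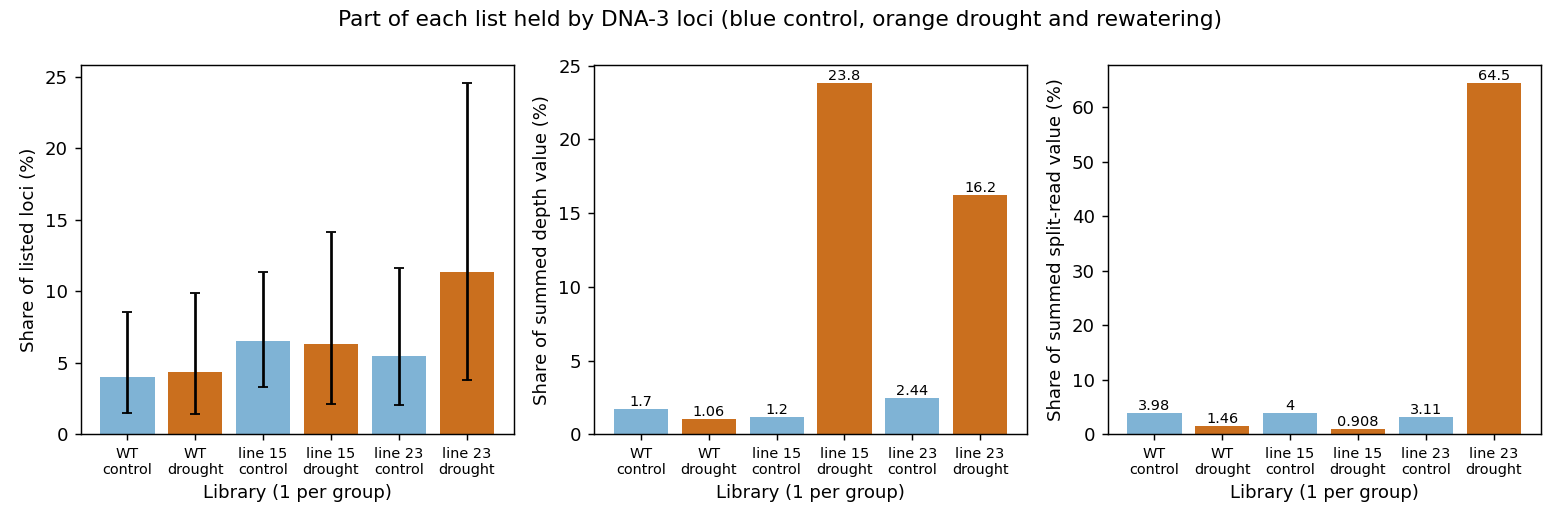
Percent of listed loci (left, bars with exact 95% intervals), of summed depth value (middle) and of summed split-read value (right) held by DNA-3 loci in each library; blue bars are control and orange bars drought libraries. The share of loci lies between 4.03% and 11.4%, the depth share reaches 23.8% and 16.2% in the drought libraries of line 15 and line 23, and the split-read share is high in line 23 drought alone, at 64.5%.

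Divided by locus length before summing, the DNA-3 share of the depth value was 83.3% and 59.9% in the drought libraries of line 15 and line 23 and ran from 1.49% to 6.97% in the other 4 lists. Which scaling is apt depends on whether the depth value counts reads. The shares of both drought RNAi lists were the highest under either scaling.

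Locus length is neither of the signals that chose the families, but the tests were chosen with earlier results of these data known. Covered fractions come from the same signals and are not independent of the choice, so no p is given for them. The p-value of length is given as a description. Length and both covered fractions were compared with the other loci of the same list over the 6 libraries. For length, an exact sign-flip permutation test for a difference in either direction was used. Its smallest possible p is 0.03125. The p of length was adjusted by the Benjamini-Hochberg method over 4 features, which were length, both covered fractions and the ratio of the signals. No p is given for the ratio either, because both signals took part in choosing the families. The libraries list some of the same loci and are not fully independent. The median DNA-3 locus was shorter than the median of the other loci in 6 of 6 libraries (mean difference -93.25 bp, SD 63.1, n = 6, exact permutation p = 0.03125, adjusted p = 0.125). The mean of the medians was 226 bp for DNA-3 and 319 bp for the other loci. The result did not pass after adjustment. The size of the difference varied with the setting. It was -9.30 bp with loci listed in 1 library only, -274.9 bp with depth values of at least 20 and -352.3 bp with means in place of medians, and it turned to 26.2 bp among loci with a single family name.

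Depth covered a larger fraction of the median DNA-3 locus in 5 of 6 libraries, 0.966 against 0.937 (mean difference 0.0293, SD 0.0281, n = 6). Among loci with a single family name the difference was 0.0029. DNA-3 entries had a median depth value of 119, against 28 for other entries, and the part of depth in this difference was not tested. The fraction covered by split reads was 0.438 for DNA-3 and 0.439 for the others (mean difference -0.00067, SD 0.117, n = 6). As a description, the median log2 ratio of the split-read to the depth value was lower for DNA-3 in 5 of 6 libraries, -3.33 against -1.59 (mean difference -1.74, SD 1.97, n = 6). Line 23 drought was the exception, with a difference of 0.79, and line 15 drought had the largest difference, -5.17.

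**Figure D4:**
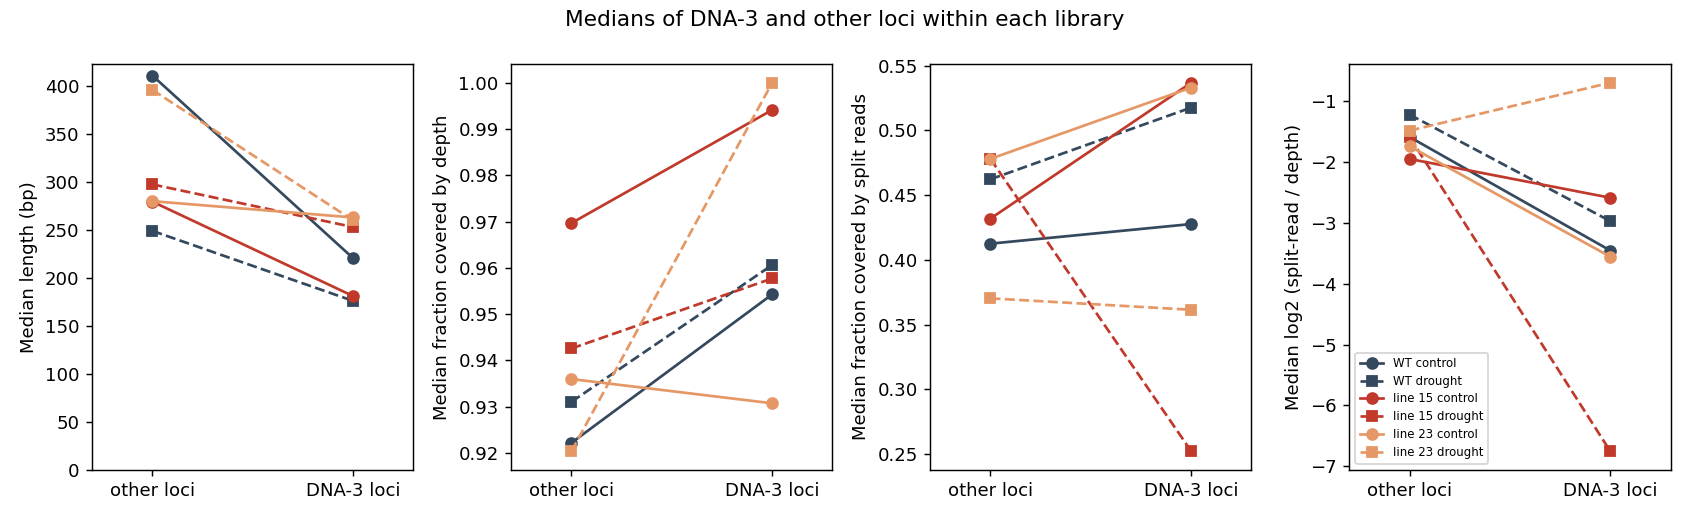
Median of 4 features of the other loci and of the DNA-3 loci in each library (circles and solid lines control, squares and dashed lines drought; dark blue WT, red line 15, orange line 23). Median length in bp is lower for DNA-3 in 6 of 6 libraries, and the log2 ratio of split-read to depth value is lower in 5 of 6, with line 23 drought going up.

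Other DNA transposons of the lists, of the kinds EnSpm/CACTA, hAT, PIF/Harbinger and MuDR, give a comparison by kind. Helitron loci were also listed and are not counted among them. EnSpm/CACTA elements had 23 loci and 35 entries, hAT elements 7 loci and PIF/Harbinger elements 5, and no locus was named as MuDR. Together these kinds had 11, 13 and 9 loci in the control libraries of WT, line 15 and line 23, and 6, 5 and 3 in their drought libraries. Their part of the summed depth value was 1.77%, 1.51% and 1.72% in control and 0.875%, 0.353% and 0.107% after drought, in the same order. Their highest depth value was 956 and their highest split-read value 55. Their summed share was thus lowest in the drought RNAi libraries, where the DNA-3 share of depth was highest, which was not tested. The family ENSPM1_PT alone held 1.72%, 1.35% and 1.58% of the summed depth value in control and 0.730%, 0.204% and 0.0536% after drought. Not every family of these kinds went that way. EnSpm3_PT and Harbinger1_PTr had their highest shares of summed depth in line 15 drought, at 0.0359% and 0.0499%.

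Of 40 other families listed in at least 4 libraries, the 3 whose share of summed depth was most like that of DNA-3 over the 6 libraries were EnSpm3_PT (Spearman's rho 0.99), SINE2-1_PTr (0.94) and Harbinger1_PTr (0.81). Unlisted was taken as 0, and all shares of a library have the same sum below them. These are families of low signal. EnSpm3_PT had depth values of 6 in WT control, 4 in line 23 control, and 18 and 8 after drought in line 15 and line 23. SINE2-1_PTr, a short interspersed element, had a summed depth value of 88 at most, and Harbinger1_PTr of 25. Ranked by share of the number of loci, 1 of the 3 was again among the first 3.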

How the data were processed

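Extrachromosomal DNA was amplified and read on a MiSeq, and Bowtie2 is named without a version, per the submitters' processing notes and the labels' protocols. The genome build, handling of reads matching several copies, counting tool and listing threshold were not given in the sources used here. Sheet names that equal a sample title tied each list to its library. The authors deposited both coverage signal columns as unscaled whole numbers of unstated kind, so no count model was fitted. The covered fraction columns, headed percent, are deposited between 0 and 1. Length equals end minus start in all 665 entries, and starts were moved to count from 1. The lowest deposited depth signal was 3, the lowest split-read signal 3 and the lowest depth-covered fraction 0.801.

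Loci were matched between lists by chromosome, start and end. Members, lists and tests were chosen with earlier results of these data known. All DNA-3 loci could be named. Those listed in 2 or more libraries, and the 3 highest by depth in each library, were to be given with values. Of other families, the 3 most like DNA-3 in share of depth were to be named, and ENSPM1_PT was added after the values were seen. Counts by split-read value over 300 or depth value over 2000 were described after their values were seen. A locus counted as changed where values differed at least 2-fold. Library read totals were not used, and a sum over listed loci is not a depth. The sign-flip test was tested on simulated data with independent values at every entry. That simulation leaves out the dependence between libraries that list the same loci. Python 3.11.15, pandas 2.3.3, numpy 2.4.6 and scipy 1.17.1 were used. Alternatives were a depth value of at least 20, loci of 1 library, any family name, means, single-name loci, merging within 1000 bp, division by length or by the library's sum, ranks, and leaving out the leading locus or each library.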

Additional observations from a re-analysis of the deposited data

Results flagged for a closer look

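Under the same contrast, drought against control, 4 results had opposite directions in different genotypes. None of these differences was tested, since each genotype has 1 pair of libraries. The DNA-3 share of the summed depth value in drought minus control was -0.633 percentage points in WT, 22.6 in line 15 and 13.8 in line 23. The direction in WT turned with the scaling. There the share went from 4.21% in control to 6.97% after drought when divided by locus length, and from 3.65% to 4.20% without the leading locus of each list, so that all 3 genotypes were then higher after drought. The DNA-3 share of the summed split-read value in drought minus control was -2.52 percentage points in WT, -3.09 in line 15 and 61.4 in line 23. The DNA-3 share of listed loci in drought minus control was 0.321 percentage points in WT, -0.180 in line 15 and 5.86 in line 23, all within the overlapping counting intervals. The log2 ratio of depth at locus 1b was 0.33 in line 15 and -0.0056 in line 23. The latter compares depth values of 257 and 256. Divided by the library's sum, the ratios were 0.80 and 0.99, in the same direction.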

How the results depend on the processing

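The number of DNA-3 loci per library held within 1.5 times under every alternative run, and choosing by any family name gave the same loci. Divided by locus length, the DNA-3 share of depth was 4.21% and 1.49% in the control libraries of WT and line 15, and 6.97%, 83.3% and 59.9% in the drought libraries of WT, line 15 and line 23. The share of split reads on that scale was 11.7%, 7.30% and 5.03% in control and 2.47%, 1.76% and 83.1% after drought, in the same order of genotypes. Without the leading locus of each list, the depth share was 3.65%, 4.68% and 13.4% in control and 4.20%, 47.2% and 45.1% after drought. Without the leading DNA-3 locus, a setting chosen after seeing the data, it was 0.805%, 0.835% and 1.53% in control and 0.563%, 13.4% and 9.90% after drought. For the split-read share, the locus left out was the leading one by split-read value, in line 15 control locus 1a in place of 1b. That share was then 1.71%, 2.52% and 1.73% in control, and 0.993% and 27.8% in WT and line 23 after drought.

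The length difference turned to 26.2 bp with single-name loci, where the depth-covered fraction differed by 0.0029, and was -274.9 bp with depth of at least 20 and -352.3 bp with means. The difference in the fraction covered by split reads, near 0, turned to 0.0625 with depth of at least 20 and to 0.0147 with means. Leaving out 1 library, a setting also added later, gave -0.0218 to 0.0443 for that fraction, turning it to 0.0443 without line 15 drought and to 0.00096 without line 23 drought. It gave -108.5 to -73.8 bp for length, 0.0192 to 0.0362 for the depth-covered fraction and -2.25 to -1.06 for the log2 signal ratio. The cause of these shifts was not tested. Length did not pass an adjusted p of 0.05 under any alternative of the sign-flip test. Settings that left 5 libraries could not pass, since the smallest possible p is then 0.0625. These were leaving out 1 library and loci listed in 1 library only. With a smallest possible p of 0.03125 over 6 libraries, before adjustment, not passing says little there either. Of 5 drought pairs, 2 were lower in depth as deposited and 1 after division by the library's sum, where the log2 ratio was 1.67 at locus 6a in WT and 0.99 at locus 1b in line 23. By share of loci, 1 of the 3 most alike families was named again. The labels give no replicate numbers to block on. Control and drought libraries were paired by genotype and compared as values, with no test over the 3 pairs, since those values took part in choosing the families. The limit that sequencing depth sets is unknown, since library read totals were not used.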

Other observations

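The depth value 5202 of locus 6c in line 15 drought is also the depth value of the locus named first SAT-1_PT on chromosome 11 in line 15 control. It is the only depth value over 500 found at 2 different loci, among 32 entries with 31 distinct values over 500. The lists give the same number in different libraries, at loci of 107 bp and 6283 bp, and whether this is chance was not tested.

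Locus 6b, a DNA-3-3_PTr fragment, was covered by depth over 119 of its 147 bp in both WT control and line 15 control, at depth values of 202 and 36, and over 138 bp in line 23 control at a depth value of 63. Split reads covered 91 bp in both RNAi control libraries. Locus 6a was covered over 167 of its 181 bp in both WT drought and line 23 control, at depth values of 154 and 40. Equal covered lengths at unequal signal were noticed after the values were seen and were not tested.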
